A study of Mus musculus with 8 samples.

Results

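The AP-1 transcription factors were followed through 2 stable mouse B cell lines and their answer to antigen receptor crosslinking. The 9 genes were taken by symbol from the deposited gene count table, Jun, Junb, Jund, Fos, Fosb, Fosl1, Fosl2, Batf and Atf3, and each of the 9 had a row among the 24054 rows that name a gene. Both lines derive from WEHI-231, a mouse lymphoma of immature B cells that stops growing and dies when its surface IgM is crosslinked. The groups were WEHI-miR-148a cells given an anti-IgM antibody against that receptor at 2 ug/ml over 14 h, WEHI-control cells given the same, unstimulated WEHI-miR-148a cells and unstimulated WEHI-control cells, with 2 libraries each. All cells grew in DMEM with serum and 2-mercaptoethanol. The labels do not give the vector or promoter that drives miR-148a, or whether a line is 1 clone.

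AP-1 is a dimer of basic leucine zipper proteins that binds the sequence called TRE, and with some partners the longer CRE. JUN proteins pair with each other or with FOS proteins, FOS proteins need a JUN partner, and BATF pairs with JUN proteins and joins IRF4 or IRF8 on composite sites in lymphocytes. Fos and Jun are known as immediate early genes: receptor signals that reach MAP kinases switch them on within minutes, and Fos transcripts decay fast. The stimulated libraries here were made 14 h after the antibody was added.

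The microRNA that names the miR-148a line and the start regions of the genes are shown because the results turn on line and stimulus. The mature miR-148a strand (RefSeq, GRCm38.p6, chr6:51269829-51269850, minus strand) carries its seed, bases 2 to 8, in capitals.
mmu-miR-148a-3p: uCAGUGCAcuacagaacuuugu
The matching 7-base site TGCACTG was searched in the 3' UTR of the longest coding transcript of each gene in GENCODE M21 (GRCm38). It stood in 1 of the 9 members, Fosb, against 12.6% of 20919 genes with a 3' UTR. The Fosb site begins at base 2109 of a 3' UTR of 2145 bases and is given with the site in capitals.
Fosb site: ccccttggttcTGCACTGtcgccaataaaa
A match is a description of letters and was not tested as a target.

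Start regions from RefSeq (250 bases before and 50 after the start, GRCm38.p6) matched 8 of the 9 members by symbol, all but Fosl1. Jun, Junb, Fos and Batf are printed. The first 2 rose in both lines in the tests described later, as did Jund, which is not printed. The other 2 differ from them in family. Capitals mark the motifs found on either strand. The motifs searched were the TRE (TGANTCA), the CRE (TGACGTCA), the variant TGACATCA known from the Jun promoter, the shorter CRE form TGACG, which also lies within the CRE, and the CArG box bound by SRF.
Jun, chr4:95052173-95052472, minus strand: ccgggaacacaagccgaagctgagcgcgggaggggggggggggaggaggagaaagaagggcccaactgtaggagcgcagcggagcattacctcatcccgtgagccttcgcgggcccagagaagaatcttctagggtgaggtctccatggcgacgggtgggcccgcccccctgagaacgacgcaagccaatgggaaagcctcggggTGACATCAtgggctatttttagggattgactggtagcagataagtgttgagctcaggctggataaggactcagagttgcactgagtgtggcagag
Junb, chr8:84978699-84978998, minus strand: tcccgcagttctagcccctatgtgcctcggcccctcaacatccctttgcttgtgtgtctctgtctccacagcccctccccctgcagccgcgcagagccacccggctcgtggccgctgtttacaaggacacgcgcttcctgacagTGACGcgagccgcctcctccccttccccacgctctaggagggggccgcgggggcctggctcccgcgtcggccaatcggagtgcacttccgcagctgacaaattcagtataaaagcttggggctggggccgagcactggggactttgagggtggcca
Fos, chr12:85473640-85473939, plus strand: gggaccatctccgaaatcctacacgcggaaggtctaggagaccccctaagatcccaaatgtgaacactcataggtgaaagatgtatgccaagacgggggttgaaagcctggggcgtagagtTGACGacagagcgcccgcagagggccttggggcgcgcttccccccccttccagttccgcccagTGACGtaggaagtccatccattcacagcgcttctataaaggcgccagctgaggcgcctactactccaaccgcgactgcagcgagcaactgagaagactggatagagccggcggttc
Batf, chr12:85686470-85686769, plus strand: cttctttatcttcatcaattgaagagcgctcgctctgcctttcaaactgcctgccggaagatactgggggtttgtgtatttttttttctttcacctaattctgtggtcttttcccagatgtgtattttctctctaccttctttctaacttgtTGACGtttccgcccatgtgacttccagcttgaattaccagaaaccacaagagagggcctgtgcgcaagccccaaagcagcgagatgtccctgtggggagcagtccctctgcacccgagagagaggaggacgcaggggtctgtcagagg
Jun held TGACATCA beginning 45 bases before its start, a motif found in 3.62% of 32851 start regions of this length. The form TGACG was found on the printed strand of Junb, Fosb, Batf and, at 2 places, Fos, and on the other strand of Atf3, and 20.8% of all regions hold it. TRE, CRE and CArG box were in none of the 8 windows, against 7.81%, 1.79% and 1.63% of all regions. The windows of Jund and Fosl2 held none of the motifs searched. Sites farther than 250 bases before a start were not searched, so their absence from a gene cannot be read from this. The RefSeq start of Jund lies 1210 bases before the GENCODE start and that of Atf3 34706 bases after it, so their windows depend on the annotation.

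Totals ran from 5797032 to 18617599 counts per library, and the anti-IgM libraries of replicate 1 were the shallowest. Values are CPM, counts scaled to a common library total, after TMM normalisation, which adjusts each library for its composition, and 3 counts equal 0.166 to 0.502 CPM. Such floors cover counting error only. The B cell identity of the lines was visible in 7 of 7 listed markers with a row, including Cd79a at 481 to 769 CPM. Ighm was also listed but had no row. T cell, monocyte or macrophage, fibroblast and erythroid markers summed to at most 4.69, 11.3, 0.615 and 2.12 CPM. Thy1, Lyz2, S100a8, Col1a2, Col3a1, Hbb-b1 and Hbb-bs were at 0 counts in all 8 libraries. Among monocyte or macrophage markers Itgam reached 8.86 CPM and no other passed 1.391 CPM. The monocyte or macrophage sum was 9.54 to 11.3 CPM in the anti-IgM miR-148a libraries, 4.35 to 7.65 in the anti-IgM control libraries, 0.922 to 1.69 in the unstimulated miR-148a libraries and 1.496 to 1.99 in the unstimulated control libraries, and its part in any result was not tested. The T cell sum, in which Cd2 reached 3.85 CPM and no other marker passed 0.348 CPM, was 2.40 to 2.96 CPM in the anti-IgM miR-148a libraries, 3.74 to 4.69 in the anti-IgM control libraries, 0.538 to 0.613 in the unstimulated miR-148a libraries and 0.451 to 0.665 in the unstimulated control libraries, and its part was likewise not tested. Replicate 1 of each group carries the label prefix R137 and replicate 2 the prefix R143, and nothing says that replicates came from separate cultures. In such bulk libraries a change in RNA per cell and a change in the share of cells that express a gene cannot be told apart.

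Across genes, levels can be set side by side only per length, here CPM per kilobase of the longest coding transcript. Jund was the most abundant member in every library, at 116 to 264 CPM per kilobase, and Junb came second at 47.5 to 81.2. These ranges do not overlap. Batf followed at 7.89 to 22.0 and Jun at 1.698 to 11.9 CPM per kilobase, and the ranges of these 2 overlap. The median over the 8 libraries was 12.1 for Batf and 6.28 for Jun. Below them by median came Fosl2 (0.290 to 1.19), Fos (0 to 2.03), Atf3 (0 to 0.338), Fosb (0.0407 to 0.609) and Fosl1 (0 to 0.0933 CPM per kilobase). The range of Fosl2 lay below that of Jun. From Fosl2 down, each gene overlapped its neighbour in this order.

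Transcripts of the JUN genes made up most of the summed level. Jund alone held 64.4% to 75.1% of the sum over the 9 members and Junb 18.9% to 26.4%. Jun held 0.867% to 3.82%. The summed JUN genes stood at 83.9 and 183 times the summed FOS genes in the anti-IgM miR-148a libraries and at 95.2 and 330 times in the anti-IgM control libraries. In the unstimulated libraries the ratio was 141 and 196 in miR-148a cells and 302 and 550 in control cells. With Jund at its longer RefSeq span its share became 51.1% to 63.6% and that of Junb 27.6% to 36.2%.

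**Figure D1:**
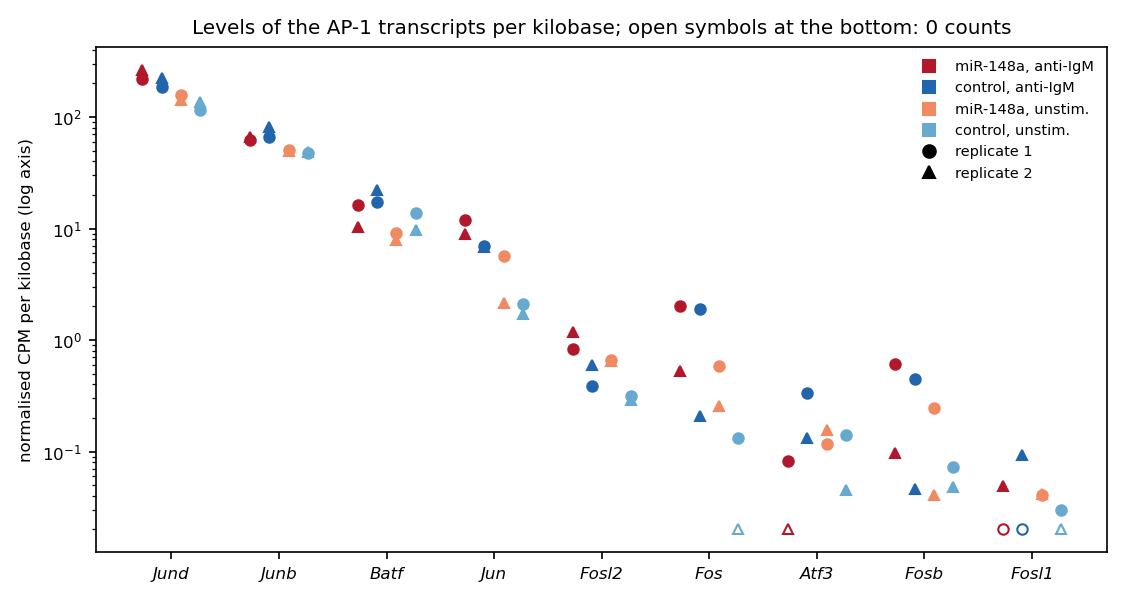
Normalised CPM per kilobase of the longest coding transcript (log axis) for the 9 AP-1 genes, ordered by their median over 8 libraries, with 1 symbol per library, circles for replicate 1 and triangles for replicate 2, coloured by group. Jund lies at 116 to 264 and Junb at 47.5 to 81.2, while open symbols at the bottom stand for 0 counts.

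A filter on low counts left 7 of the 9 members for testing, and Fosl1 and Atf3 were too low. Positions given with the genes are those of the whole gene, and exon counts are those of its longest coding transcript. Fosl1 (chr19:5447547-5455946, plus strand, 4 exons in GENCODE M21, GRCm38), which encodes the FOS family protein Fra-1, had 0 to 2 counts in each library. It shares 1163 bases with Ccdc85b on the opposite strand, a gene at 11.3 to 18.01 CPM. Atf3 (chr1:191170296-191218039, minus strand, 4 exons), a stress-induced factor that pairs with JUN proteins, had 0 to 5 counts. Atf3 had 1 and 0 counts in the anti-IgM miR-148a libraries, 4 and 3 in the anti-IgM control libraries, 3 and 4 in the unstimulated miR-148a libraries and 5 and 1 in the unstimulated control libraries. These values are near the floor, and no difference was detectable at this depth. Without the filter neither gene passed in any comparison.

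The first question is how the members answer receptor crosslinking in each line. Jun, Junb and Jund rose with anti-IgM in both lines. In miR-148a cells 3 of 7 tested members rose and none fell, where 14.7% of all 11291 tested genes rose (edgeR's quasi-likelihood test, adjusted p under 0.05). In control cells the same 3 of 7 rose and none fell, where 9.60% of all tested genes rose. The 7 fitted changes were positive in each line, and their median on the log2 scale was 0.69 for the miR-148a line and 0.74 for the control line, while all tested genes had medians of 0.00 and 0.01. With the replicate number as a block, which compares libraries of the same prefix, 6 of 7 rose in each line, against 22.8% of all genes in miR-148a cells and 17.6% in control cells. The count without the block fell to 1 when either unstimulated control library was left out of the control line's comparison. In these fits 931 and 540 of all genes were called in either direction, without replicates 1 and 2, against 1925 with all libraries. For miR-148a cells it fell to 1 without stimulated replicate 1, where 3155 genes were called, or without unstimulated replicate 2, where 2023 were called, against 3238.

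Jun (GENCODE M21, GRCm38, chr4:95049034-95052222, minus strand, 1 exon), the founding member, whose protein activates its own gene in other cells, had the largest change of the 3. It stood at 37.8 and 28.4 CPM in the anti-IgM miR-148a libraries, 22.4 and 21.8 in the anti-IgM control libraries, 18.2 and 6.84 in the unstimulated miR-148a libraries and 6.76 and 5.41 in the unstimulated control libraries. Within each line every anti-IgM library lay above every unstimulated library. How many of all tested genes lay apart in this way, with 2 libraries against 2, was not counted. Such separation is a description only, here and for the members below. The fitted log2 change was 1.39 ± 0.35 (SE, adjusted p = 0.0180, edgeR's quasi-likelihood test) in miR-148a cells and 1.84 ± 0.38 (adjusted p = 0.0138) in control cells. The first of these values moved with single libraries. It was 2.26 when unstimulated miR-148a replicate 1 was left out, 0.84 when replicate 2 of those cells was left out, and 1.18 (adjusted p = 0.0688) when stimulated miR-148a replicate 1 was left out.

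Junb (chr8:84974484-84978718, minus strand, 1 exon of 1809 bases in its longest coding transcript) encodes a JUN protein that can oppose JUN on some promoters. Its level was 112 and 120 CPM in the anti-IgM miR-148a libraries, 121 and 147 in the anti-IgM control libraries, 91.6 and 89.5 in the unstimulated miR-148a libraries and 85.9 and 88.6 in the unstimulated control libraries. Stimulated and unstimulated libraries did not overlap in either line. Junb rose on the log2 scale by 0.36 ± 0.12 (adjusted p = 0.0447) in miR-148a cells and 0.62 ± 0.12 (adjusted p = 0.00888) in control cells. The smaller rise did not pass without filter (adjusted p = 0.0604), in the 4 libraries of that line alone (adjusted p = 0.0502), or without any of 6 single libraries. These were replicate 1 (0.41, adjusted p = 0.0583) and 2 (0.30, adjusted p = 0.200) of stimulated miR-148a cells, replicate 1 (0.37, adjusted p = 0.171) and 2 (0.34, adjusted p = 0.181) of unstimulated miR-148a cells, and replicate 1 (0.35, adjusted p = 0.0720) and 2 (0.36, adjusted p = 0.0667) of unstimulated control cells.

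Jund (chr8:70698949-70700616, plus strand, 1 exon), the JUN gene that most tissues express without a stimulus, had 362 and 441 CPM in the anti-IgM miR-148a libraries, 311 and 372 in the anti-IgM control libraries, 263 and 236 in the unstimulated miR-148a libraries and 193 and 225 in the unstimulated control libraries. Here too the stimulated libraries of a line lay above its unstimulated ones. Its log2 change was 0.69 ± 0.14 (adjusted p = 0.00652) in miR-148a cells and 0.71 ± 0.14 (adjusted p = 0.0108) in control cells. The call in miR-148a cells was lost without replicate 2 of its unstimulated group (0.60, adjusted p = 0.0521).

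In control cells the calls of these 3 genes also rest on single libraries. Jun was at 1.82 (adjusted p = 0.0584) and 1.86 (adjusted p = 0.0509) when replicates 1 and 2, in turn, were left out of stimulated control cells and at 1.70 (adjusted p = 0.0770) without replicate 2 of unstimulated control cells. Junb was at 0.60 (adjusted p = 0.0557) and 0.64 (adjusted p = 0.0563) when replicates 1 and 2, in turn, were left out of unstimulated control cells. Jund was at 0.57 (adjusted p = 0.0592) without replicate 2 of stimulated control cells and at 0.60 (adjusted p = 0.0719) without replicate 1 of unstimulated control cells. Each of these 7 log2 changes lay within 1.5 times of its value from 8 libraries. On the opposite strand the annotated antisense genes Junos and Gm11175 share 689 bases with Jun and 919 bases with Jund. Neither was analysed here, and no source used here states whether the counting kept the strands apart.

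**Figure D2:**
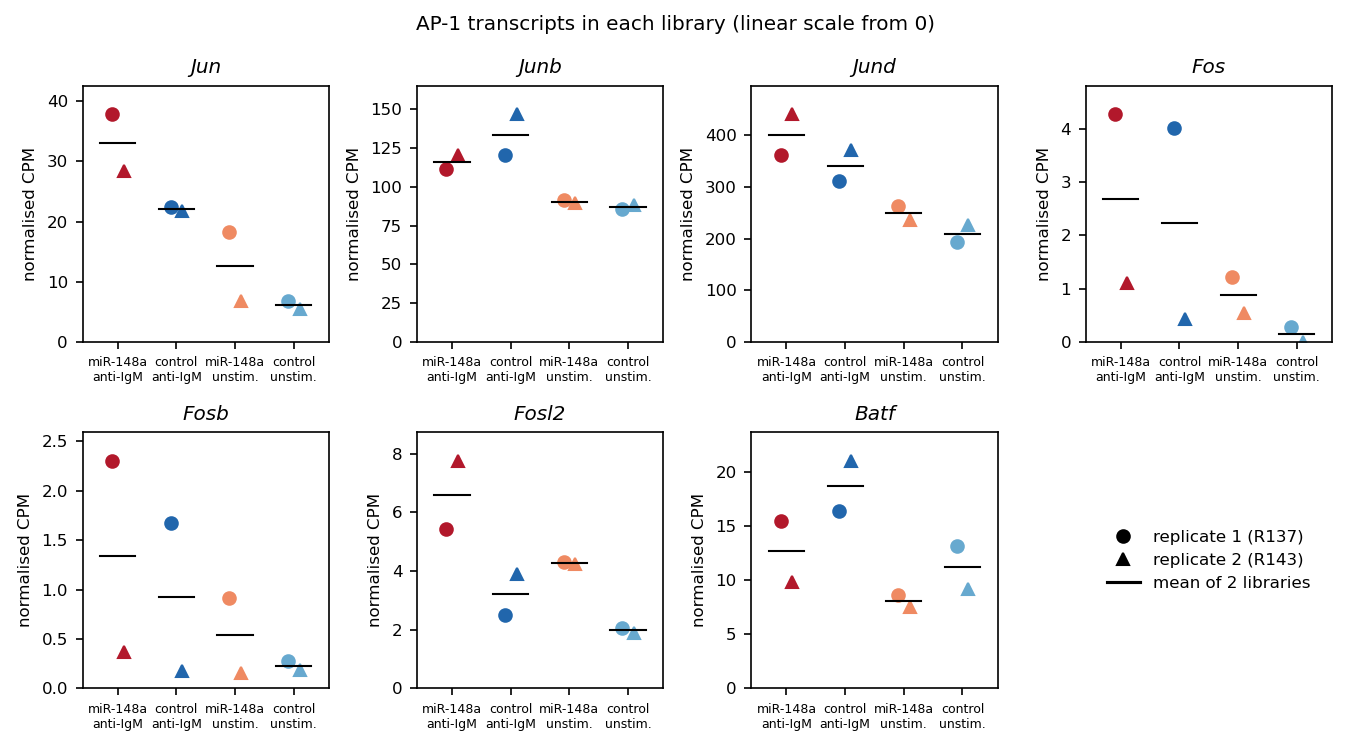
Normalised CPM (linear axes from 0) of the 7 tested AP-1 genes in each library, by group, with circles for replicate 1 (label prefix R137), triangles for replicate 2 (R143) and a line at the mean of 2. Jun, Junb and Jund are higher in the anti-IgM libraries of each line, and Fos and Fosb are higher in replicate 1 of each group.

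Fos (chr12:85473890-85477273, plus strand, 4 exons), whose protein activates transcription in dimers with JUN proteins, was rare at this time point. Counts were 26 and 12 in the anti-IgM miR-148a libraries, 24 and 5 in the anti-IgM control libraries, 16 and 7 in the unstimulated miR-148a libraries and 5 and 0 in the unstimulated control libraries. As CPM these were 4.28 and 1.11 in stimulated miR-148a, 4.02 and 0.435 in stimulated control, 1.23 and 0.538 in unstimulated miR-148a and 0.277 and 0 in unstimulated control cells. Stimulated and unstimulated libraries overlapped in miR-148a cells and were apart in control cells. There the separation rests on 5 counts in each of the nearest libraries, 0.435 CPM stimulated and 0.277 CPM unstimulated, close to the floor of 3 counts. The fitted log2 fold change was 1.51 (95% interval -0.81 to 3.82, adjusted p = 0.306) in miR-148a cells and 3.49 (0.53 to 6.45, adjusted p = 0.101) in control cells. With the block Fos rose in both, by 1.60 ± 0.47 (adjusted p = 0.0125) in miR-148a cells and 3.70 ± 0.66 (adjusted p = 0.000697) in control cells. DESeq2 also called the rise in control cells (3.77, adjusted p = 0.0113), as did the fits without a filter (3.46, adjusted p = 0.0345) and without stimulated control replicate 2 (4.51, adjusted p = 0.0408). Without stimulated control replicate 1 it was 1.34 (adjusted p = 0.604), and leaving out unstimulated control replicate 1 left that group at 0 counts. The miR-148a value was 0.32 without stimulated replicate 1 and 2.26 without stimulated replicate 2.

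Fosb (chr7:19302696-19310051, minus strand, 4 exons), whose product also pairs with JUN proteins, was lower still. It had 14 and 4 counts in the anti-IgM miR-148a libraries, 10 and 2 in the anti-IgM control libraries, 12 and 2 in the unstimulated miR-148a libraries and 5 and 2 in the unstimulated control libraries. As CPM these were 2.30 and 0.369 in stimulated miR-148a, 1.67 and 0.174 in stimulated control, 0.919 and 0.154 in unstimulated miR-148a and 0.277 and 0.181 in unstimulated control cells. The groups overlapped in each line. It did not pass in miR-148a cells (log2 change 1.13, 95% interval -1.39 to 3.66, adjusted p = 0.487) or in control cells (1.66, -1.32 to 4.63, adjusted p = 0.432). With the block the control value was 2.01 ± 0.72 (adjusted p = 0.0434), while among the R143 libraries the difference in log2 CPM was -0.03.

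Fosl2 (chr5:32135801-32157842, plus strand, 4 exons), which encodes Fra-2, had 5.43 and 7.75 CPM in the anti-IgM miR-148a libraries, 2.51 and 3.91 in the anti-IgM control libraries, 4.29 and 4.23 in the unstimulated miR-148a libraries and 2.05 and 1.895 in the unstimulated control libraries. The groups of a line did not overlap, but the changes did not pass. They were 0.65 (95% interval 0.01 to 1.29, adjusted p = 0.117) in miR-148a cells and 0.74 (0.02 to 1.46, adjusted p = 0.146) in control cells. With the block the miR-148a value passed (0.65 ± 0.23, adjusted p = 0.0351) and the control value did not (0.71 ± 0.30, adjusted p = 0.0786). Without the block the miR-148a value was 0.35 when stimulated miR-148a replicate 2 was left out, and the control value was 0.34 when stimulated control replicate 2 was left out.

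Batf (chr12:85686669-85709087, plus strand, 3 exons), which B cells of the mouse need for class switching, had 15.5 and 9.87 CPM in the anti-IgM miR-148a libraries, 16.4 and 21.1 in the anti-IgM control libraries, 8.66 and 7.53 in the unstimulated miR-148a libraries and 13.2 and 9.20 in the unstimulated control libraries. Again the stimulated libraries lay above the unstimulated ones in each line. Fitted changes were 0.61 (95% interval 0.02 to 1.20, adjusted p = 0.114) in miR-148a cells and 0.74 (0.19 to 1.29, adjusted p = 0.0684) in control cells. Both passed with the block, at 0.60 ± 0.22 (adjusted p = 0.0353) in miR-148a cells and 0.79 ± 0.19 (adjusted p = 0.00566) in control cells. The control value also passed with upper-quartile factors (0.80, adjusted p = 0.0499), without a filter (0.68, adjusted p = 0.0454), and when stimulated miR-148a replicate 1 (0.74, adjusted p = 0.0440) or 2 (0.74, adjusted p = 0.0409) was left out. The miR-148a value was 0.28 (adjusted p = 0.478) when stimulated miR-148a replicate 1 was left out and 0.93 (adjusted p = 0.0587) when replicate 2 of those cells was left out.

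**Figure D3:**
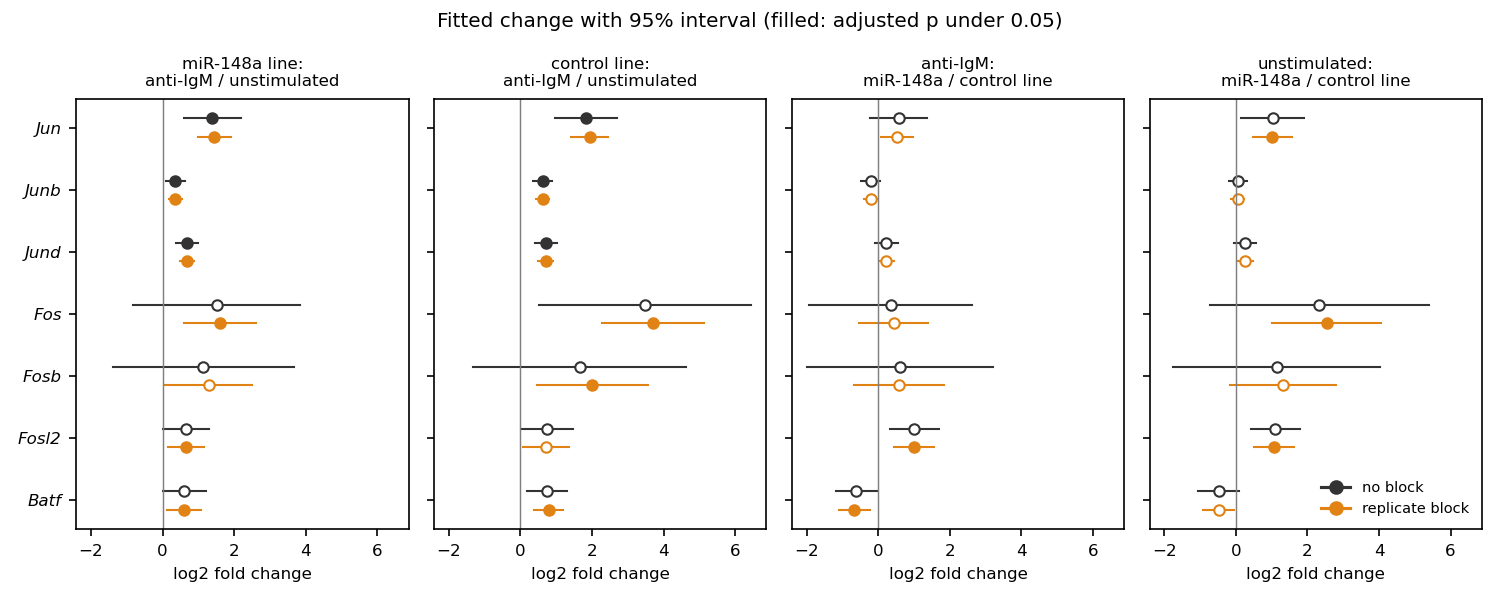
Fitted log2 fold changes with 95% intervals for the 7 tested AP-1 genes in 4 comparisons, without a block (black) and with the replicate block (orange). Filled symbols have an adjusted p under 0.05. Jun, Junb and Jund are filled in both responses to anti-IgM, and the line comparisons are filled only with the block.

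The second question is whether the lines differ at the same stimulus. None of the 7 tested members passed in either condition, where 2.52% of all tested genes passed with anti-IgM and 0.487% without stimulation. At an unadjusted p under 0.05 there were 2 members in each condition, where 18.2% of all tested genes stood with anti-IgM and 11.4% without stimulation. DESeq2 called 0 of the 5 members to which it gave an adjusted p, where it called 3.98% of such genes with anti-IgM and 1.53% without stimulation. Fosl2 had the lowest p in both conditions. Its log2 fold change, miR-148a line over control line, was 1.01 ± 0.30 with anti-IgM (95% interval 0.33 to 1.69, adjusted p = 0.128) and 1.10 ± 0.30 unstimulated (0.42 to 1.78, adjusted p = 0.177). Among the R137 and R143 libraries the log2 CPM differed by 1.06 and 0.955 with anti-IgM and by 1.003 and 1.09 unstimulated. Each miR-148a library lay above each control library of its condition. The same held for Jun in both conditions and for Junb, Jund and Fos unstimulated, while Junb lay below with anti-IgM. The share of all tested genes so separated was not counted.

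With the block 3 members were higher in the unstimulated miR-148a line, where 3.91% of all genes were higher. They were Fosl2 (1.07 ± 0.26, adjusted p = 0.0226), Jun (1.02 ± 0.25, adjusted p = 0.0235) and Fos (2.54 ± 0.71, adjusted p = 0.0450). With anti-IgM and the block 2 members passed, where 16.1% of all genes passed in either direction. Fosl2 was higher in miR-148a cells (1.01 ± 0.26, adjusted p = 0.0184) and Batf was lower (-0.67 ± 0.20, adjusted p = 0.0394). Without the block Jun was at 0.57 (95% interval -0.22 to 1.36, adjusted p = 0.439) with anti-IgM and 1.02 (0.15 to 1.89, adjusted p = 0.343) unstimulated, and Fos at 0.35 (-1.93 to 2.62, adjusted p = 0.902) and 2.33 (-0.73 to 5.40, adjusted p = 0.591). The unstimulated Jun difference in log2 CPM was 1.41 among R137 and 0.33 among R143 libraries. Its fitted value fell to 0.15 (adjusted p = 0.949) without unstimulated miR-148a replicate 1 and was 1.56 without replicate 2 of those cells.

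Batf was the member with negative line differences in both conditions. Without the block it was at -0.61 (95% interval -1.19 to -0.04, adjusted p = 0.244) with anti-IgM and -0.48 (-1.05 to 0.08, adjusted p = 0.533) unstimulated. Every miR-148a library lay below every control library of its condition, with an anti-IgM difference in log2 CPM of -0.09 among R137 and -1.08 among R143 libraries. The fitted value with anti-IgM was -0.94 and -0.30 without stimulated miR-148a replicates 1 and 2, and -0.41 without stimulated control replicate 2. The unstimulated value was -0.18 without unstimulated control replicate 1. The Junb and Jund differences were small. Junb was at -0.21 (95% interval -0.47 to 0.05) with anti-IgM and 0.05 (-0.20 to 0.31) unstimulated, and Jund at 0.23 (-0.08 to 0.55) and 0.25 (-0.06 to 0.57). Fosb, the member with a miR-148a seed match, was at 0.62 (-1.99 to 3.22) with anti-IgM and 1.14 (-1.75 to 4.03) unstimulated, intervals that hold both a large fall and a large rise.

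The third question is whether the response to anti-IgM differs between the lines. None of the 7 members passed, and neither did any of the 11291 genes (0%), with edgeR's quasi-likelihood test. At an unadjusted p under 0.05 there were 484 genes (4.29%) and 0 members. DESeq2 called 1 gene (0.00886%) and no member, and the fit with the block called 11 genes (0.0974%) and no member. The 7 differences, response of the miR-148a line minus that of the control line, were all negative in the fit without a block, with a median log2 value of -0.26 where all genes had -0.02. Jun was at -0.45 (95% interval -1.63 to 0.72), Junb at -0.26 (-0.63 to 0.11), Jund at -0.02 (-0.46 to 0.42), Fos at -1.99 (-5.83 to 1.85), Fosb at -0.52 (-4.34 to 3.29), Fosl2 at -0.09 (-1.04 to 0.86) and Batf at -0.13 (-0.94 to 0.68). Each interval includes 0, and for 6 of the 7, all but Junb, the sign turned when some single library was left out. With the block Junb was at -0.26 (adjusted p = 0.423) and Fos at -2.11 (adjusted p = 0.363).

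Levels of Fos, Fosb and Jun differed between the label prefixes. R143 libraries were lower than R137 libraries in all 4 groups for Fos (log2 CPM differences of -2.77 to -0.97), for Fosb (-2.39 to -0.34) and for Jun (-1.39 to -0.04). Junb and Jund differed by at most 0.28 in either direction. The smallest Jun difference was that of stimulated control cells, at 22.4 and 21.8 CPM. For Fosb it was that of unstimulated control cells, at 5 and 2 counts. The share of all tested genes lower in all 4 groups was not counted. Same-numbered libraries deviated together over genes (Pearson's r 0.495 to 0.569), so such shifts are not particular to these members. Each prefix holds 1 library of every group, and its part in these levels was not tested. Within prefixes R137 and R143, Fos was higher with anti-IgM by 1.67 and 0.84 in miR-148a cells and by 3.20 and 1.78 in control cells, on log2 CPM with a prior count of 2.

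**Figure D4:**
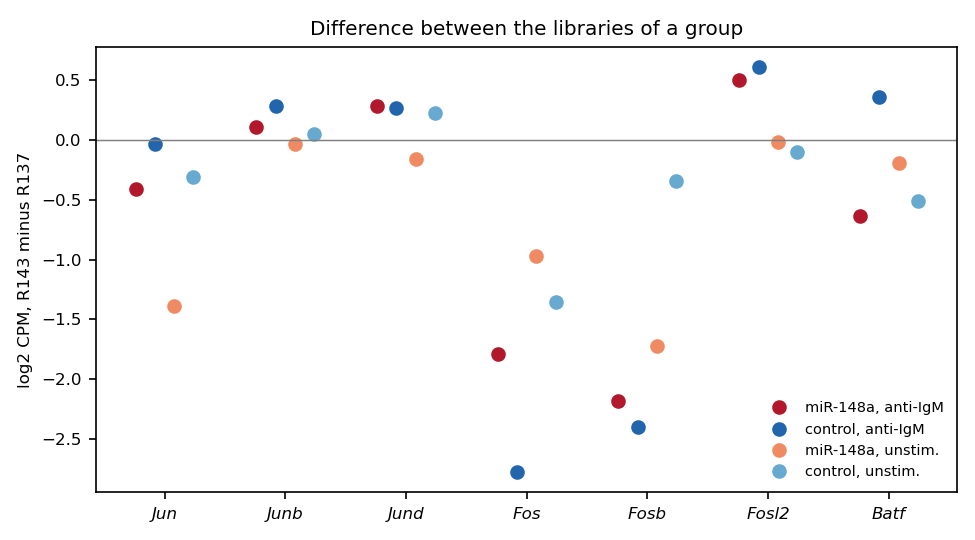
Difference in log2 CPM between the 2 libraries of each group, R143 (replicate 2) minus R137 (replicate 1), for the 7 tested AP-1 genes, with points coloured by group and a line at 0. All 4 points lie below 0 for Fos, Fosb and Jun, while Junb and Jund lie within 0.28 of 0.

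Other basic leucine zipper genes moved in both directions. Of 23 listed relatives and partners, 18 were tested. Among miR-148a cells' changes 1 was a rise and 1 a fall, with a median of -0.15 on the log2 scale, and in control cells 3 rose and 1 fell, with a median of -0.08. Over all genes 1659 rose and 1579 fell in miR-148a cells and 1084 rose and 841 fell in control cells, with medians of 0.00 and 0.01. With the block 2 rose and 5 fell in miR-148a cells and 3 rose and 5 fell in control cells, while over all genes 2569 rose and 2636 fell in miR-148a cells and 1989 rose and 1940 fell in control cells. Atf4, the factor of the amino acid response, fell by 1.02 (SE 0.14, adjusted p = 0.00130) in miR-148a cells and by 0.77 (SE 0.14, adjusted p = 0.00788) in control cells. Atf6, a sensor of unfolded protein in the endoplasmic reticulum, rose by 0.72 ± 0.12 (adjusted p = 0.00264) in miR-148a cells and 0.74 ± 0.12 (adjusted p = 0.00513) in control cells. Nfil3, a repressor with roles in lymphocytes, was at 0.39 ± 0.58 (adjusted p = 0.652) in miR-148a cells and rose by 2.66 ± 0.52 (adjusted p = 0.0104) in control cells. Nfil3 was low, at 0.4934 and 1.2 CPM in the anti-IgM miR-148a libraries and 3.851 and 3.044 in the anti-IgM control libraries. Unstimulated values were 0.8428 and 0.5381 CPM in miR-148a cells and 0.388 and 0.7219 in control cells. Stimulated miR-148a replicate 1 stood at its floor of 3 counts. Crem, a cAMP-responsive factor, was at 0.52 ± 0.21 (adjusted p = 0.0906; 0.0456 with the block) in miR-148a cells and rose by 0.65 ± 0.19 (adjusted p = 0.0496) in control cells.

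Both IRF partners of BATF were tested. Irf4 fell by 1.87 (SE 0.18, adjusted p = 0.000427) in miR-148a cells and by 1.40 (SE 0.18, adjusted p = 0.00210) in control cells. Irf8 was at 0.41 ± 0.15 (adjusted p = 0.0691; 0.0127 with the block) in miR-148a cells and rose by 0.68 ± 0.15 (adjusted p = 0.0167) in control cells. With anti-IgM and the block both were lower in miR-148a cells, Irf4 at -0.52 (adjusted p = 0.0108) and Irf8 at -0.50 (adjusted p = 0.0152).

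The 18 genes of the MAP kinase route to FOS and JUN were all tested. In miR-148a cells 4 rose and 1 fell (5 and 5 with the block), with a median of 0.02. In control cells 2 rose and none fell (5 and 2 with the block), with a median of 0.01. Of all tested genes 14.7% rose in miR-148a cells and 9.60% in control cells, or 22.8% and 17.6% with the block. These shares are also the background for the turnover and target lists that follow. Elk3, a partner of SRF, rose by 1.72 ± 0.34 (adjusted p = 0.00578) in miR-148a cells and 2.13 ± 0.31 (adjusted p = 0.00354) in control cells. Rps6ka1, a kinase below ERK, rose by 0.78 ± 0.13 (adjusted p = 0.00290) in miR-148a cells and was at 0.34 ± 0.13 (adjusted p = 0.111; 0.00777 with the block) in control cells. Map3k1, a kinase above JNK, rose by 0.63 ± 0.18 (adjusted p = 0.0304) in miR-148a cells and was at 0.44 ± 0.18 (adjusted p = 0.128; 0.00151 with the block) in control cells. Mapk8, which encodes JNK1, fell by 0.62 (SE 0.14, adjusted p = 0.0105) in miR-148a cells and was at -0.34 ± 0.14 (adjusted p = 0.132; 0.0293 with the block) in control cells. Mapk3, which encodes ERK1, rose by 0.35 ± 0.11 (adjusted p = 0.0398) in miR-148a cells and 0.45 ± 0.11 (adjusted p = 0.0244) in control cells.

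Among 7 genes that act on turnover and activity of JUN and FOS proteins, none passed in miR-148a cells (2 fell with the block) and 1 rose in control cells (1 rose and 3 fell with the block). It was Trib1, a pseudokinase gene, at 0.20 ± 0.18 (adjusted p = 0.448) in miR-148a cells and 0.96 ± 0.18 (adjusted p = 0.00923) in control cells. The most expressed of them, Cops5, was at -0.14 ± 0.13 (adjusted p = 0.447) in miR-148a cells and -0.07 ± 0.13 (adjusted p = 0.759) in control cells. The list medians were -0.15 in miR-148a cells and -0.23 in control cells.

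Textbook AP-1 target genes numbered 16, of which 12 were tested. In miR-148a cells 4 rose and 2 fell (6 and 3 with the block), with a median of 0.46, and in control cells 5 rose and 1 fell (5 and 2 with the block), with a median of 0.67. Ccnd1, which encodes cyclin D1, fell by 1.71 (SE 0.25, adjusted p = 0.00179) in miR-148a cells and by 1.12 (SE 0.25, adjusted p = 0.0180) in control cells. Vim, which encodes vimentin, rose by 1.38 ± 0.15 (adjusted p = 0.000688) in miR-148a cells and 1.04 ± 0.15 (adjusted p = 0.00369) in control cells. Plau, which encodes urokinase, rose by 1.21 ± 0.18 (adjusted p = 0.00182) in miR-148a cells and 1.02 ± 0.18 (adjusted p = 0.00680) in control cells. Bcl2l11, which encodes the death protein Bim, rose by 0.58 ± 0.17 (adjusted p = 0.0284) in miR-148a cells and 1.52 ± 0.16 (adjusted p = 0.00117) in control cells. Plaur, the urokinase receptor gene, rose by 1.99 ± 0.61 (adjusted p = 0.0379) in miR-148a cells and was at 0.53 ± 0.73 (adjusted p = 0.665) in control cells. The cytokine gene Il6 was at 2.00 ± 0.82 (adjusted p = 0.0994) in miR-148a cells and rose by 2.41 ± 0.60 (adjusted p = 0.0270) in control cells. The phosphatase gene Dusp1 was at 0.71 ± 0.33 (adjusted p = 0.138; 0.0491 with the block) in miR-148a cells and rose by 1.36 ± 0.36 (adjusted p = 0.0326) in control cells. Il6, Plaur and Dusp1 were low, at no more than 4.09 CPM in any library.

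Between the lines 2 target genes passed with anti-IgM and no other listed gene passed in either condition. Bcl2l11 (-1.02 ± 0.16, adjusted p = 0.0207) and the adhesion receptor gene Cd44 (-0.76 ± 0.12, adjusted p = 0.0195) were lower in stimulated miR-148a than in stimulated control cells, and the list median was -0.31. Over all genes 153 were higher and 131 lower in that comparison, and 28 were higher and 27 lower without stimulation. With the block and anti-IgM, 1 target was higher and 4 were lower, among relatives and partners 2 were higher and 4 lower, on the MAP kinase route 1 was higher and 2 lower, and among turnover genes 2 were lower. With the block and no stimulus, 2 relatives were higher and 1 lower, 1 gene of the MAP kinase route was higher, 1 turnover gene was lower and 0 targets passed.

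Highly expressed genes of the other lists did not pass without the block. Atf4 was at -0.33 (adjusted p = 0.251) with anti-IgM and -0.08 (adjusted p = 0.907) unstimulated, and Nfe2l1, a regulator of proteasome genes, at -0.37 (adjusted p = 0.177; 0.00742 with the block) and -0.31 (adjusted p = 0.383; 0.0224 with the block). Irf4 was at -0.53 (adjusted p = 0.170; 0.0108 with the block) with anti-IgM and -0.05 (adjusted p = 0.956) unstimulated, and Irf8 at -0.52 (adjusted p = 0.121; 0.0152 with the block) and -0.25 (adjusted p = 0.599). On the kinase route Map3k1 was at 0.21 (adjusted p = 0.592) and 0.03 (adjusted p = 0.979). Cops5, a subunit of the COP9 signalosome, was at -0.34 (adjusted p = 0.200; 0.0105 with the block) and -0.27 (adjusted p = 0.456; 0.0464 with the block). Among unstimulated targets Vim was at 0.04 (adjusted p = 0.961) and Tgfb1, which encodes a growth-restraining cytokine, at -0.05 (adjusted p = 0.973).

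No listed gene passed for the difference in response, with or without the block. The list medians were -0.09 for relatives, -0.37 for the IRF pair, -0.10 for the kinase route, -0.06 for turnover genes and -0.38 for targets, where all genes had -0.02. Highly expressed genes of these lists lay between -0.47 (Irf4) and 0.35 (Vim), with Atf4 at -0.25, Nfe2l1 at -0.06, Irf8 at -0.27, Map3k1 at 0.18, Cops5 at -0.07 and Tgfb1 at 0.29.

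The genes whose profiles lay nearest to a member were found by the root mean square difference in centred log2 CPM over the 8 libraries, among 8683 genes of at least 3 on the log2 CPM scale. A member's own root mean square deviation from its mean gives the scale. For Jun (own deviation 0.992) they were Sema3b (0.335), Efnb1 (0.365) and Cdkn1a (0.374). For Junb (0.264) they were Ptpn18 and Ap5z1 (0.079 each) and Tonsl (0.081). Jund (0.386) had Vcl (0.086), Ppard (0.087) and Irf2bpl (0.096). Fosl2 (0.628) had Ptchd1 (0.181), Atp9a (0.208) and Fbxl20 (0.215), and Batf (0.482) had Lck (0.188), Ubash3b (0.195) and Ptplb (0.204). For the low genes the nearest profiles were farther away: Trp53inp1 (0.771), Irf7 (0.885) and Ephx1 (0.899) for Fos (1.48), and Cd55 (0.531), Neil1 (0.694) and Galnt12 (0.708) for Fosb (1.08). These differences are a description with no test.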

How the data were processed

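PolyA-selected RNA of 8 libraries (4 groups of 2, from the sample labels) was measured. Expected counts (estimates by gene symbol, before any normalisation) were deposited as 1 table. The submitters' processing notes name edgeR, Partek 6.15.0730, Bowtie2, TopHat2 2.0.13, cutadapt and CASAVA 1.8, and the builds mm10 and GRCm38. Roles of these tools, the annotation and the strand setting are stated in no source used here, and the library kit was directional per the labels' protocols.

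Of 24081 rows, 27 named by calendar dates were left out (0.213% to 0.235% of counts). Estimates were rounded (9.12% to 12.4% per library were not whole within 1e-06). Differences were tested by edgeR's quasi-likelihood method on all 8 libraries with 4 group means (filterByExpr, TMM), with Benjamini-Hochberg adjustment over 11291 genes and a threshold of 0.05. R 4.3.3, edgeR 4.0.16, DESeq2 1.42.0 and Python 3.11.15 were used. Errors after ± are standard errors of log2 fold changes. Data were simulated for the control line response (11291 genes, 200 changed, each of mean CPM above 2, with no difference between label prefixes). Of genes changed by 1 on the log2 scale 88% were recovered, and 98% of those changed by 2. Of the calls made 7% were of unchanged genes, more than the threshold of 0.05. Mean CPM of Fos and Fosb over the 8 libraries lay below 2, so these rates do not cover them.

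Replicates of a group differed beyond sampling noise (mean chi-square per gene 9.40 to 13.6), and since no source says that they were separate cultures, p-values cover the spread between these libraries alone and that spread may be technical. Same-numbered libraries carry the same label prefix and deviated together (Pearson's r 0.495 to 0.569 over genes in 6 pairs of groups), so the number pairs them, and block values stand beside results whose call they change. The members, lists and tests were chosen with earlier results of these data known. Named genes were all members and, per list and comparison, up to 4 called genes of largest change, or up to 2 of highest expression. Some genes this rule takes are not reported here and stay in the counts. Likeness genes were the 3 nearest profiles per tested member. Alternatives were the block, other factors, no filter, DESeq2, the 4 libraries of a comparison and leaving out each library.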

Additional observations from a re-analysis of the deposited data

How the results depend on the processing

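With the replicate block the members called were 6 in each response, 2 between anti-IgM lines and 3 between unstimulated lines, against 3, 3, 0 and 0 without it. Genes called with and without the block were 5205 and 3238 for the response of miR-148a cells, 3929 and 1925 for that of control cells, 1822 and 284 between anti-IgM lines, 823 and 55 between unstimulated lines, and 11 and 0 for the interaction. Without a filter 5 of 9 members rose in control cells, where 2216 genes were called in either direction. Between lines 450 genes were called with anti-IgM and 179 unstimulated, also in either direction. How many genes were tested without a filter was not recorded, so these counts give no share. DESeq2 called 159 genes between unstimulated lines and 1 for the interaction, and the 4 anti-IgM libraries alone gave 16. The Jund share averaged 56.4% with its RefSeq span, a setting chosen after seeing the data.

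Leaving out single libraries gave 1 to 3 members in miR-148a cells and 1 to 4 in control cells, and 1481 to 3155 genes in miR-148a cells, 540 to 2082 in control cells, 0 to 222 between anti-IgM lines and 0 to 76 between unstimulated lines. Fosb turned sign, with ranges of -0.53 to 2.87 in miR-148a cells, -0.43 to 2.76 in control cells, -1.05 to 2.70 between anti-IgM lines and -0.59 to 1.90 between unstimulated lines, and Fos ran from -0.84 to 2.51 between anti-IgM lines. Interaction ranges were -0.99 to 0.42 for Jun, -0.17 to 0.11 for Jund, -5.85 to 0.17 for Fos, -2.19 to 1.56 for Fosb, -0.39 to 0.31 for Fosl2 and -0.46 to 0.19 for Batf, and Jund was at 0.0205 without a filter. The cause was not tested. Of 473 member values under other settings 416 kept direction and side of the threshold, 18 gained a call, 17 lost it and 22 turned sign. Depth limits Fos, Fosb, Fosl1 and Atf3, which had at most 26 counts in a library.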
